A study of Homo sapiens with 16 samples.

Results

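The unfolded protein response and the ATF4 response were followed through 42 of the 43836 genes counted by RNA-seq in cells labelled KG-1. KG-1 is an established human acute myeloid leukemia line that grows in suspension as myeloblast-like cells. The genes were chosen by symbol, with earlier results of these data known, and each mapped to 1 Ensembl identifier of GENCODE release 44. They comprised 7 sensors and transcription factors, 9 stress effectors and 10 amino acid genes that ATF4 is known to drive, 13 chaperones and foldases of the endoplasmic reticulum (ER), and 3 genes of ER-associated degradation (ERAD). A pair of lentivirally transduced, puromycin-selected populations, both carrying the pLKO.1 vector, was compared. Control cells expressed a non-targeting shRNA and FOXM1-KD cells an shRNA against FOXM1, a proliferation-associated forkhead transcription factor. Control cells received 0.3% DMSO, 50 μM STL427944, 0.75 μM AraC or 100 nM venetoclax for 48 h, or 30 μM MK-2206 for 24 h, and FOXM1-KD cells received DMSO, AraC or venetoclax at the same doses for 48 h. MK-2206 inhibits AKT, STL427944 was used as a FOXM1 inhibitor, AraC (cytarabine) is incorporated into DNA and blocks its synthesis, and venetoclax inhibits BCL-2. Each of the 8 conditions had 2 libraries, described as biological replicates.

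Proteins that misfold in the ER are sensed by IRE1 (gene ERN1), PERK (EIF2AK3) and ATF6. IRE1 splices the XBP1 transcript, and spliced XBP1 and cleaved ATF6 activate genes for chaperones, foldases and ERAD. PERK, like the amino acid sensor GCN2 (EIF2AK4), phosphorylates eIF2α, which slows general translation while ATF4 protein is made, so that the ATF4 program also responds to signals other than misfolded ER proteins. ATF4 in turn activates amino acid synthesis and transport, CHOP (DDIT3) and feedback genes such as PPP1R15A. Transcript counts report neither XBP1 splicing nor ATF4 translation.

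Some of the promoters carry known response elements of the pathways, which are shown here for 9 genes. Promoters of 37 members were found in RefSeq (GRCh38.p14; no entry was used for NUPR1, PSPH, SHMT2, SLC7A11 and PDIA3) and searched on both strands from 250 bases before to 50 bases after the gene start. The ER stress element (ERSE), searched as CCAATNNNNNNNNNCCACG, was found in 22 of 27305 promoters (0.0806%), among them those of XBP1 and of 5 of the 12 chaperone genes with a promoter, HSPA5, HSP90B1, CALR, CANX and CRELD2. ERSE-II, searched as ATTGGNCCACG, was found in 15 promoters (0.0549%), including those of SDF2L1, HYOU1 and HERPUD1. A C/EBP-ATF response element of the form TGATGNAA was found in 1003 promoters (3.67%), with CHAC1, ASNS, SLC3A2 and HERPUD1 among them and no chaperone gene. One or more of the 3 motifs stood in 12 of the 37 promoters, and HERPUD1 held a pair of them. Among the stress effectors and amino acid genes, 1 of 8 and 2 of 7 promoters held the last one. Among the members 0 pairs of matches to different motifs overlapped, and a match describes letters, not a bound site. The stretches below hold matches for genes whose levels are described in the following paragraphs, written 5′ to 3′ on the strand of the gene, with the matched letters in capitals. The matches of CANX, XBP1 and SLC3A2 and the C/EBP-ATF match of HERPUD1 are not printed. CANX and XBP1, like HERPUD1, were not called with venetoclax in FOXM1-KD cells. XBP1 was lower in FOXM1-KD than in control cells in DMSO and with AraC.
HSPA5, ERSE, chr9:125241351-125241450, minus strand: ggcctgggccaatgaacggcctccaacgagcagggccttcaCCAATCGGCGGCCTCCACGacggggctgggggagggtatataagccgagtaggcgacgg
HSP90B1, ERSE found 2 times, chr12:103930206-103930349, plus strand: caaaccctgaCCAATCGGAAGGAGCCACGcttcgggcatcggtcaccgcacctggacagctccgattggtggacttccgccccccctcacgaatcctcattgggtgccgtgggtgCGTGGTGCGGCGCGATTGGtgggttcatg
CALR, ERSE, chr19:12938359-12938458, plus strand: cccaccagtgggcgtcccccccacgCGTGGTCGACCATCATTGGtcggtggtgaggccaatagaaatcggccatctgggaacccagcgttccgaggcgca
CRELD2, ERSE, chr22:49918513-49918612, plus strand: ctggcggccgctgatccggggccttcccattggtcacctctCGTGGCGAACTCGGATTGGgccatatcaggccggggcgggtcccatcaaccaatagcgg
SDF2L1, ERSE-II, chr22:21642069-21642168, plus strand: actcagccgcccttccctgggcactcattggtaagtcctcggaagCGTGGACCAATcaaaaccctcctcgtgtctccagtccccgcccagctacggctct
HYOU1, ERSE-II found 2 times, chr11:119057264-119057400, minus strand: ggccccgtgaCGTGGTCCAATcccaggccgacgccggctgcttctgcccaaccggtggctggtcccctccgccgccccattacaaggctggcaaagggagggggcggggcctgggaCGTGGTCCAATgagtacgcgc
HERPUD1, ERSE-II, chr16:56931980-56932079, plus strand: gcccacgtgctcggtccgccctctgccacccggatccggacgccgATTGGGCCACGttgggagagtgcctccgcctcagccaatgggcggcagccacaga
CHAC1, C/EBP-ATF element, chr15:40953221-40953320, plus strand: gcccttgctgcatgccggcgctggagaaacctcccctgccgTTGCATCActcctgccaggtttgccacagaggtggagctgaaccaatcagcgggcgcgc
ASNS, C/EBP-ATF element, chr7:97872423-97872522, minus strand: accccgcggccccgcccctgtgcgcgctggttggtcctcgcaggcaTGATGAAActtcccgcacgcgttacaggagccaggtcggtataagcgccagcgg
In HSPA5 the match lay 66 to 48 bases before the gene start, and in CHAC1 209 to 202 bases before it.

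The libraries held 7351755 to 21362546 counts. Libraries were compared by the root mean square difference of log2(CPM + 1), where CPM are counts scaled by library size and TMM, over 12542 protein-coding genes without the 42 members. STL427944 replicate 2 and control venetoclax replicate 1 lay closest to each other (0.31), and each lay farther from its own replicate (0.63 and 0.65). STL427944 replicate 1 and control venetoclax replicate 2 lay near control DMSO replicates 1 and 2 (0.19 and 0.25). Within both drugs one library thus resembled DMSO and the other did not. FOXM1 itself had 140 and 138 CPM in control DMSO libraries and 48.8 and 81.8 CPM in FOXM1-KD DMSO libraries, a log2 fold change of -1.08 ± 0.28 (SE, adjusted p = 0.056). With venetoclax it had 121 and 127 CPM in control and 50.6 and 57.0 CPM in FOXM1-KD cells (-1.2 ± 0.39), whereas with AraC it had 181 and 156 CPM and 121 and 114 CPM, short of 2-fold (-0.56 ± 0.19, adjusted p = 0.0124). STL427944 libraries had 137 and 112 CPM and MK-2206 libraries 21.7 and 19.8 CPM of FOXM1. CD34, a marker of the KG-1 line, had 25160 and 26713 counts in control DMSO libraries but at most 4 in any of the 6 FOXM1-KD libraries and 7 and 18 in the MK-2206 libraries, so these 8 libraries lacked a defining marker of the line. A further check for mixed-up samples also found 8 libraries that did not match the rest. The MK-2206 libraries lay 2.06 to 2.17 from the control DMSO libraries and 1.48 to 1.75 from the FOXM1-KD libraries. Whether all 16 libraries came from the same line is therefore in doubt, and in every comparison of MK-2206 with DMSO or of FOXM1-KD with control cells, the interactions included, the treatment cannot be told apart from such a difference. The comparisons of drugs within FOXM1-KD cells, and within control cells without MK-2206, do not set these libraries against the others. The 7 myeloid and blood markers together had 4916 to 164788 counts per library, whereas 5 epithelial markers had at most 32, 4 stromal markers at most 34, 5 lymphoid markers 3 to 284 and 5 erythroid markers at most 9. The mitochondrial share was 6.68% and 18.37% in MK-2206 libraries and at most 3.05% elsewhere. In bulk RNA fewer cells of a kind cannot be told apart from less RNA per cell.

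In FOXM1-KD cells venetoclax raised 9 of 13 ER chaperones, while of 10 amino acid genes 3 fell, 1 rose and 6 were not called. AraC raised 7 of 9 stress effectors in the same cells with 0 chaperones called. With MK-2206, 22 members of all roles rose and 4 fell. Genes with at least 10 counts were called about as often in both directions together, 28.5% of them higher and 33.1% lower. A gene was called when it changed at least 2-fold with an adjusted p below 0.1 in edgeR's quasi-likelihood test, adjusted by Benjamini-Hochberg over all genes with at least 1 count in the libraries compared. Most members are well expressed, so they are also set beside the genes with at least 10 counts on average, of which more are called than of all genes. As the members were chosen with earlier results known, their shares are not independent of these data. Calls over all 42 members are given here by comparison and calls by role in the paragraphs that follow. Where groups of 2 libraries are said not to overlap, this describes the values printed. The share of all genes without overlap was not counted.

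With venetoclax in FOXM1-KD cells, 10 members were called higher, against 1.51% of all genes tested, and 4 lower, against 0.578%. Among genes with at least 10 counts 3.4% were called in either direction, compared with 33.3% of the members. With AraC in FOXM1-KD cells 11 members were called higher, against 9.03% of all genes, and 0 lower, against 2.57%, and 16% of genes with at least 10 counts were called compared with 26.2% of the members. In control cells AraC had 0 members called higher (4.52% of all genes) and 3 lower (2.17%), and the 3 calls were lost when either control AraC library was left out, as were those of all genes. Of genes with at least 10 counts, 9.24% were called with AraC in control cells (3.01% lower), beside 7.32% of the members. STL427944 and venetoclax in control cells had 0 members called, and 0% of all genes were called in either comparison. MK-2206 had 22 members called higher, against 26.0% of all genes, and 4 lower, against 17.9%. Of genes with at least 10 counts, 61.5% were called with MK-2206 (28.5% higher and 33.1% lower), close to the share of the members (61.9%). FOXM1-KD cells against control cells in DMSO had 8 members called higher (11.3% of all genes) and 5 lower (13.7%), which with 31% of members is near the 33.5% of genes with at least 10 counts. The number called was 4 without control DMSO replicate 1 and 5 without replicate 2. With AraC in both cells 16 were called higher (15.2% of all genes) and 3 lower (14.0%), 45.2% of members beside 38.7% of genes with at least 10 counts. With venetoclax in both cells 17 were called higher (10.8%) and 4 lower (13.5%), and 50% of members were called compared with 36.5% of genes with at least 10 counts.

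**Figure D1:**
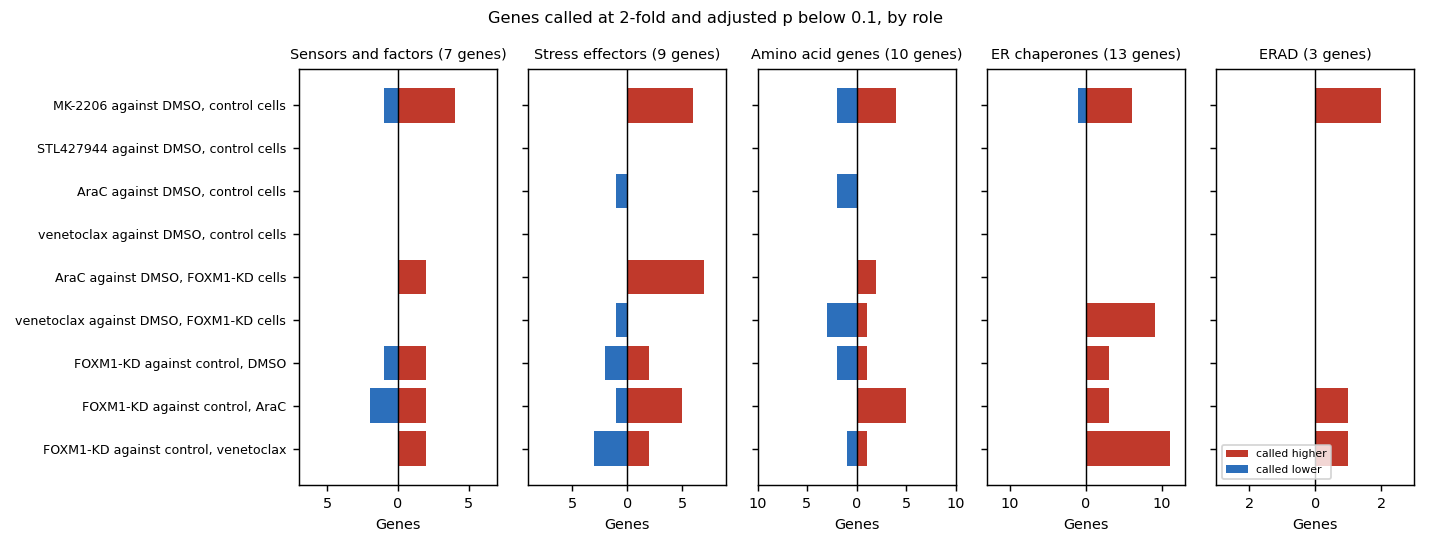
Genes called higher (red, to the right) and lower (blue, to the left) at 2-fold and adjusted p below 0.1, for each role (panels) and comparison (rows). The horizontal axis counts genes and ends at the size of the list. In FOXM1-KD cells, venetoclax called 9 of 13 chaperones higher and AraC 0, whereas AraC called 7 of 9 stress effectors higher and venetoclax 0.

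ER chaperones and foldases. In FOXM1-KD cells, 9 of 13 members of this group were called higher with venetoclax and 0 lower, and the median log2 fold change of the 13 was 1.34, compared with -0.01 over genes with at least 10 counts. HSPA5, the BiP chaperone that binds unfolded chains in the ER lumen and holds the sensors inactive, had 173 and 276 CPM in FOXM1-KD cells with DMSO and 755 and 627 CPM with venetoclax, and the groups did not overlap. Its log2 fold change was 1.64 ± 0.29 (SE, adjusted p = 7.03e-06). In control cells venetoclax gave 203 and 233 CPM of HSPA5 beside 201 and 185 CPM with DMSO. The HSP90 paralog of the ER, HSP90B1, had 483 and 676 CPM with DMSO and 1370 and 1510 CPM with venetoclax in FOXM1-KD cells (log2 fold change 1.34 ± 0.28, adjusted p = 0.000284). HSP90B1 did not overlap between these groups either, and the 2 FOXM1-KD venetoclax libraries were the highest of all 16.
CALR, the lectin chaperone calreticulin, was the most abundant member per kilobase of exon in control DMSO libraries (426 CPM per kilobase). It had 1560 and 1910 CPM in FOXM1-KD cells with DMSO and 5410 and 3330 CPM with venetoclax. In every library outside that group CALR stayed between 975 and 1910 CPM. CANX, its membrane-bound relative, had 1260 and 1480 CPM with DMSO and 1840 and 2040 CPM with venetoclax in FOXM1-KD cells and was not called there (log2 fold change 0.52 ± 0.3, adjusted p = 0.749).
The largest chaperone change with venetoclax was that of CRELD2, a secreted ER stress-inducible factor, with 28.8 and 24.7 CPM in DMSO and 149 and 73.0 CPM in venetoclax (log2 fold change 2.07 ± 0.33, adjusted p = 1.91e-07). SDF2L1, a partner of BiP, had 7.40 and 15.4 CPM in DMSO and 53.2 and 36.4 CPM in venetoclax (log2 fold change 1.99 ± 0.35, adjusted p = 2.71e-06). HYOU1, a nucleotide exchange factor for BiP, had 165 and 245 CPM in DMSO and 837 and 500 CPM in venetoclax (log2 fold change 1.72 ± 0.3, adjusted p = 1.93e-06). For these genes the venetoclax libraries lay above both DMSO libraries, with replicate 1 above replicate 2. The disulfide isomerases PDIA4 and PDIA3 rose by 1.58 ± 0.3 and 1.16 ± 0.3 on the log2 scale, and MANF, a secreted ER-resident factor, by 1.33 ± 0.32. PDIA6, the J-domain cochaperones DNAJB9 and DNAJC3, and CANX were not called, with log2 fold changes of 0.68, 0.26, 0.82 and 0.52.
With either FOXM1-KD venetoclax library left out, 0 of these chaperones and 0 of all genes were called, while the 9 log2 fold changes were 0.94 or more without any 1 library. Without FOXM1-KD DMSO replicate 1, 3 chaperones were called, and without replicate 2, 8.

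**Figure D2:**
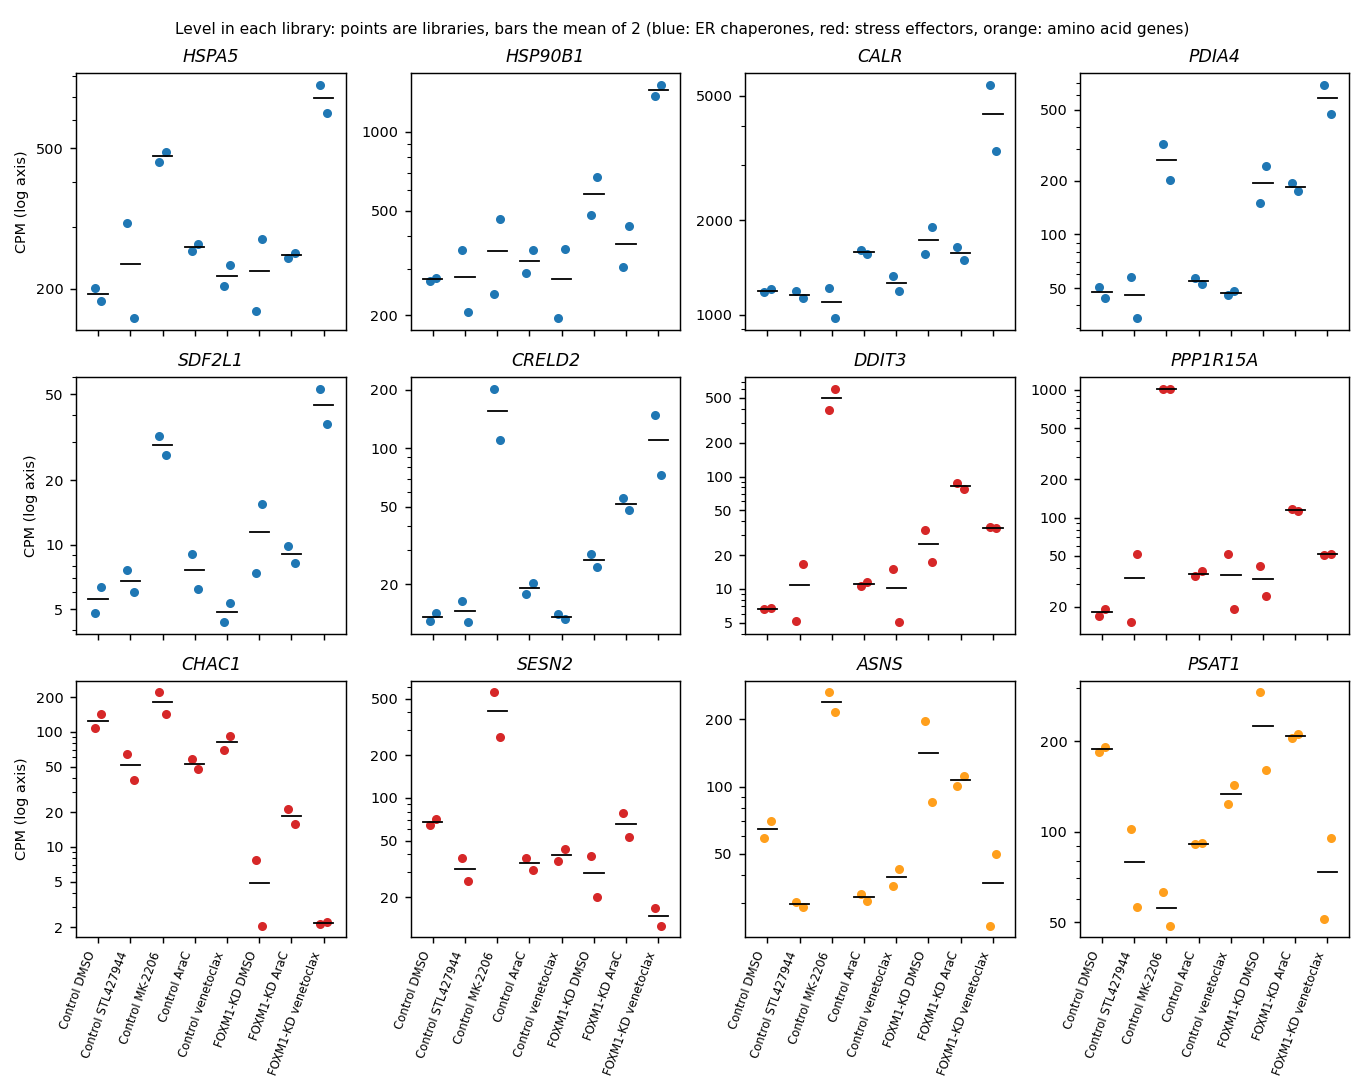
Levels of 6 ER chaperones (blue), 4 stress effectors (red) and 2 amino acid genes (orange) in the 8 conditions, in CPM on log axes, with a point for each library and a bar at the mean of the 2. Both FOXM1-KD venetoclax points are the highest of each chaperone panel except CRELD2, whose highest point is an MK-2206 library at 203 CPM, and CHAC1 is at 2.12 and 2.21 CPM there.

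AraC called 0 of 13 chaperones in FOXM1-KD cells, with a median log2 fold change of -0.16, and 0 of 13 in control cells, with a median of 0.39. HSPA5 had 245 and 252 CPM with AraC in FOXM1-KD cells, within the range of the DMSO libraries. In control cells it had 256 and 268 CPM with AraC, above both DMSO libraries, and its log2 fold change of 0.42 did not reach 2-fold (adjusted p = 0.0217).
With MK-2206, 6 chaperones rose and 1 fell (53.8% called). Of genes with at least 10 counts, 28.5% were called higher and 33.1% lower (61.5% called). DNAJB9, known as ERdj4, had 5.70 and 4.56 CPM with DMSO and 69.1 and 103 CPM with MK-2206 (log2 fold change 4.14 ± 0.33, adjusted p = 4.96e-35). CRELD2 rose by 3.58 on the log2 scale, PDIA4 by 2.53, SDF2L1 by 2.44, MANF by 2.21 and HSPA5 by 1.36. PDIA6 fell from 266 and 257 CPM to 65.1 and 78.6 CPM (log2 fold change -1.79 ± 0.27, adjusted p = 2.84e-10). Unlike in the FOXM1-KD venetoclax libraries, CALR and HSP90B1 were not called with MK-2206: CALR had 1220 and 975 CPM and HSP90B1 242 and 464 CPM.
FOXM1-KD cells in DMSO had more PDIA4 than control cells (149 and 241 against 50.5 and 44.1 CPM, log2 fold change 2.06 ± 0.28, adjusted p = 0.0112), more DNAJB9 (1.66 ± 0.28) and more HSP90B1 (1.09 ± 0.2), with the other 10 chaperones not called. With AraC, PDIA4, DNAJB9 and CRELD2 were called higher in FOXM1-KD cells. With venetoclax 11 of 13 were called higher, PDIA4 with 687 and 472 against 45.5 and 48.2 CPM (log2 fold change 3.63 ± 0.39, adjusted p = 7.27e-19), SDF2L1 by 3.2 and CRELD2 by 3.02. PDIA6 and DNAJC3 were the chaperones not called in that comparison. The calls of PDIA3 there, and those of ERN1 and SHMT2 given in later paragraphs, were each lost without any of 3 of the 4 libraries.

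Stress effectors. With AraC in FOXM1-KD cells 7 of 9 were called higher and 0 lower, and their median log2 fold change was 1.65 compared with -0.04 over genes with at least 10 counts. CHAC1, which degrades glutathione, had 7.62 and 2.06 CPM with DMSO and 21.5 and 15.7 CPM with AraC (log2 fold change 1.87 ± 0.35, adjusted p = 2.49e-06). In control cells CHAC1 moved the other way, from 108 and 143 CPM with DMSO to 58.1 and 47.4 CPM with AraC (log2 fold change -1.27 ± 0.16, adjusted p = 5.35e-05). Groups did not overlap in either cell type, and all FOXM1-KD libraries held less CHAC1 than any control library.
CEBPB, a transcription factor that dimerizes with ATF4, had 45.9 and 18.6 CPM with DMSO and 127 and 102 CPM with AraC in FOXM1-KD cells (log2 fold change 1.76 ± 0.28, adjusted p = 2.32e-08). PPP1R15A, the phosphatase subunit GADD34 that reverses eIF2α phosphorylation, had 41.8 and 24.4 CPM with DMSO and 117 and 113 CPM with AraC (1.72 ± 0.28, adjusted p = 4.45e-08). DDIT3, which encodes the pro-apoptotic factor CHOP, had 33.1 and 17.2 CPM with DMSO and 87.8 and 78.0 CPM with AraC (1.65 ± 0.29, adjusted p = 3.77e-07). In each case both AraC libraries exceeded both DMSO libraries. TRIB3, a pseudokinase that restrains ATF4 and AKT, rose by 1.47 ± 0.27, and SESN2, a leucine sensor that inhibits mTORC1, by 1.07 ± 0.28. NUPR1, a small stress-induced nuclear protein, had 3 and 0 counts with DMSO and 42 and 33 with AraC. This was a ratio of 28 (95% exact counting interval 9.23 to 139, which leaves out the spread between libraries). NUPR1 had at most 3 counts in each of the other 14 libraries. DDIT4, an mTORC1 inhibitor, rose by 0.97 ± 0.26 (adjusted p = 0.00231), just under 2-fold. These 7 calls became 0 when either FOXM1-KD AraC library was left out, as did those of all genes, and the 7 log2 fold changes were 0.66 or more without any 1 library.
In control cells AraC called none of the stress effectors higher. PPP1R15A, TRIB3 and DDIT3 had log2 fold changes of 0.99, 0.92 and 0.71 with adjusted p of 0.00047, 0.000797 and 0.0175, below the fold threshold, and SESN2 of -0.99.

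Venetoclax in FOXM1-KD cells called 0 stress effectors higher and 1 lower. That gene, STC2, a secreted glycoprotein, had 3 counts in each venetoclax library and 310 and 17 counts (16.4 and 0.896 CPM) in the DMSO libraries. STC2 thus had a ratio of 46.6 of DMSO over venetoclax (95% exact counting interval 21.2 to 128, which leaves out the spread between libraries). Without FOXM1-KD DMSO replicate 1 its log2 fold change was -2.18 and it was not called. SESN2 (39.2 and 20 CPM with DMSO, 16.9 and 12.6 CPM with venetoclax) and CHAC1 (7.62 and 2.06, then 2.12 and 2.21 CPM) were not called. Their groups overlapped for CHAC1 only. DDIT3 had 35.3 and 34.5 CPM with venetoclax, and PPP1R15A 50.9 and 52.2 CPM, each above both DMSO libraries and not called (log2 fold changes 0.49 and 0.66).
With MK-2206, 6 of 9 stress effectors rose and 0 fell (66.7% called). Of genes with at least 10 counts, 28.5% were called higher and 33.1% lower (61.5% called). DDIT3 had 6.58 and 6.70 CPM with DMSO and 388 and 605 CPM with MK-2206, a log2 fold change of 6.3 ± 0.32 (adjusted p = 1.58e-81) and the largest of the 42 members. PPP1R15A rose from 17.0 and 19.3 CPM to 1020 and 1010 CPM (5.87 ± 0.3), CEBPB by 4.35, DDIT4 by 3.33, SESN2 by 2.65 and TRIB3 by 2.03 on the log2 scale. CHAC1 (221 and 143 CPM), STC2 and NUPR1 were not called. MK-2206 was given for 24 h and DMSO for 48 h, so drug and time cannot be told apart.
FOXM1-KD cells in DMSO held more DDIT3 (log2 fold change 1.93 ± 0.36, adjusted p = 0.0243) and TRIB3 (1.37 ± 0.27) than control cells, and less CHAC1 (-4.69 ± 0.62, adjusted p = 0.0103) and SESN2 (-1.19 ± 0.34). With AraC in both cells, DDIT3 was higher in FOXM1-KD cells by 2.88 ± 0.24, DDIT4 by 2.42 ± 0.2, TRIB3 by 1.93 ± 0.2 and PPP1R15A by 1.62 ± 0.22, NUPR1 was at least 14.2-fold higher when the control libraries, at 0, are set at a floor of 3 counts each, and CHAC1 was lower (-1.54 ± 0.24). With venetoclax in both cells DDIT3 and DDIT4 were higher (1.8 ± 0.44 and 1.64 ± 0.4), CHAC1 and SESN2 lower (-5.22 ± 0.5 and -1.44 ± 0.43), and STC2 lower, with a ratio of control over FOXM1-KD cells of 41 (95% exact counting interval 18.6 to 113). The control libraries had 13.4 and 2.98 CPM of STC2, a spread that the interval leaves out. The log2 fold change of STC2 was -3.92 without control venetoclax replicate 1 and -6.08 without replicate 2. CHAC1 was thus called lower in FOXM1-KD cells under all 3 treatments, the only stress effector called in that direction in each.

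**Figure D3:**
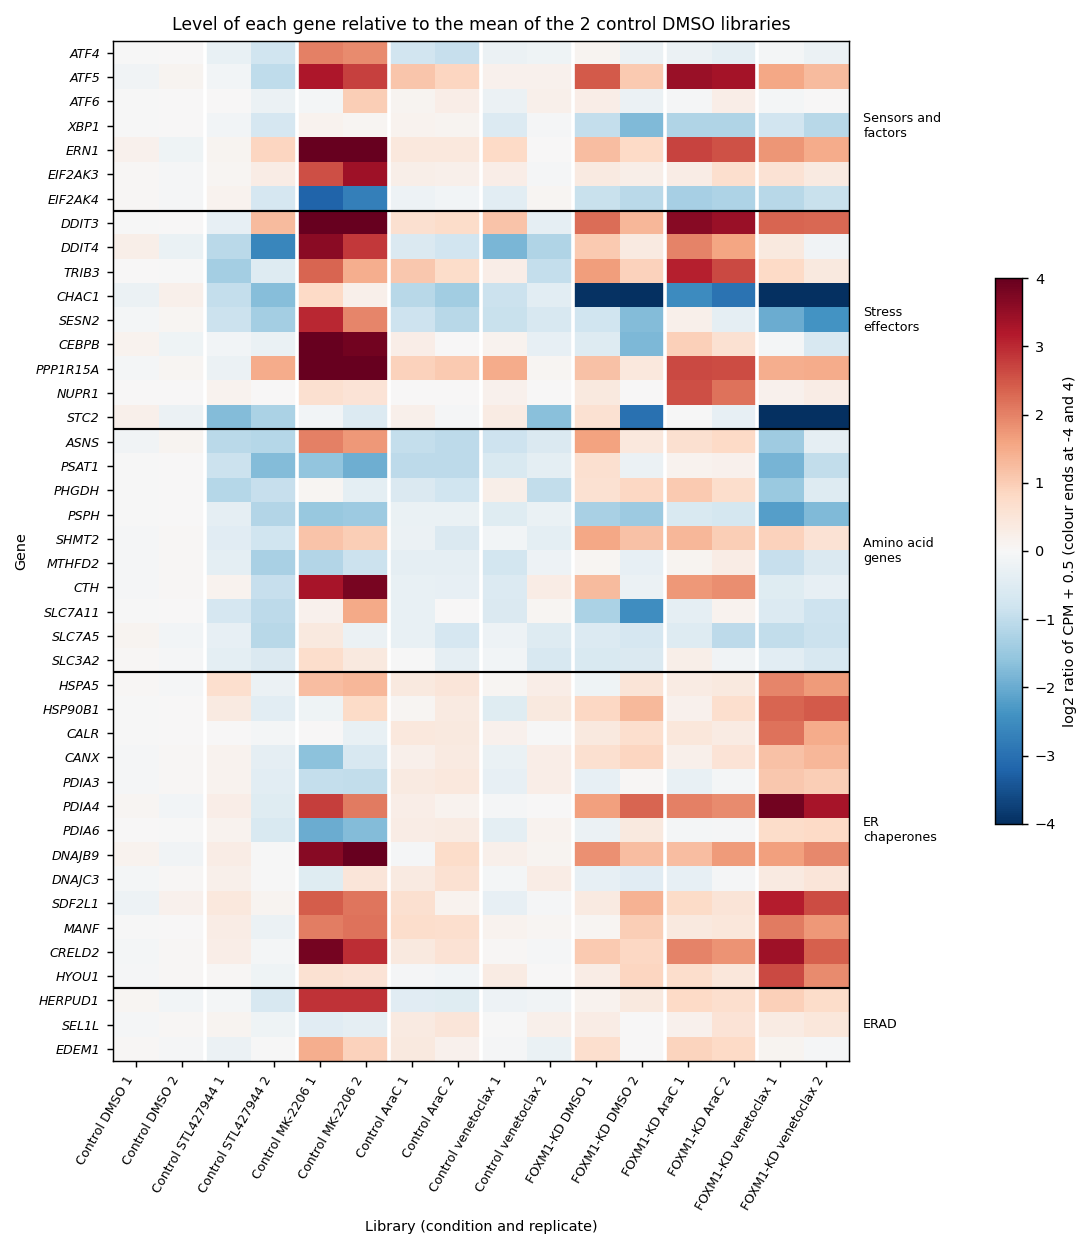
Level of each of the 42 members (rows, ordered by role) in each of the 16 libraries (columns) as the log2 ratio of CPM + 0.5 to the mean of the 2 control DMSO libraries, red above and blue below, with colour ending at -4 and 4. The chaperone block is red in the FOXM1-KD venetoclax columns. With MK-2206 some chaperones are red, such as DNAJB9, CRELD2 and PDIA4, and others blue, such as PDIA6 and CANX. Most stress effectors are red in the MK-2206 and FOXM1-KD AraC columns, but STC2 is not, and SESN2 is near 0 with FOXM1-KD AraC. CHAC1 is blue in all 6 FOXM1-KD columns.

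Amino acid genes. Venetoclax in FOXM1-KD cells called 3 of these 10 genes lower and 1 higher. ASNS, asparagine synthetase, fell from 197 and 85.7 CPM to 23.8 and 49.9 CPM (log2 fold change -1.91 ± 0.33, adjusted p = 1.7e-06). The serine synthesis enzymes PHGDH and PSAT1 fell as well, PHGDH from 186 and 219 CPM to 43.8 and 86.3 CPM (-1.62 ± 0.32, adjusted p = 6.28e-05) and PSAT1 from 291 and 160 CPM to 51.4 and 95.1 CPM (-1.6 ± 0.31, adjusted p = 6.57e-05). PSPH, the last enzyme of that pathway, had 32.4 and 29.4 CPM with DMSO and 17.3 and 23.2 CPM with venetoclax and was not called (-0.59, adjusted p = 0.886). SLC7A11, the cystine transporter subunit, rose from 62.3 and 26.9 CPM to 104 and 84.9 CPM (1.1 ± 0.32, adjusted p = 0.0389). For each of these called genes the venetoclax libraries did not overlap the DMSO libraries. The 4 calls were lost without either FOXM1-KD venetoclax library, those of ASNS and PSAT1 also without FOXM1-KD DMSO replicate 1, and those of PHGDH and SLC7A11 also without replicate 2. The median over the 10 genes was -0.6, while that of the chaperones was 1.34.
With AraC in FOXM1-KD cells SLC7A11 rose to 118 and 166 CPM (1.6 ± 0.28, adjusted p = 2.89e-07) and CTH, which makes cysteine from cystathionine, from 27.7 and 9.54 CPM to 38.2 and 42.5 CPM (1.05 ± 0.3, adjusted p = 0.00617). The other 8 were not called. CTH had a log2 fold change of 0.47 without FOXM1-KD DMSO replicate 2 and was then not called. In control cells AraC lowered ASNS from 58.7 and 70.1 CPM to 33.0 and 30.8 CPM (-1.03 ± 0.15, adjusted p = 0.000199) and PSAT1 from 184 and 192 CPM to 91.4 and 91.5 CPM (-1.06 ± 0.12, adjusted p = 2.45e-05), with 0 of the 10 called higher. MK-2206 raised CTH (3.71 ± 0.31), ASNS (1.96 ± 0.27), the mitochondrial serine enzyme SHMT2 (1.13 ± 0.26) and SLC7A11 (1.09 ± 0.26), and lowered PSAT1 (-1.69 ± 0.28) and PSPH (-1.42 ± 0.29). SLC7A11 had 149 and 154 CPM with DMSO and 172 and 439 CPM with MK-2206, and without MK-2206 replicate 2 its log2 fold change was 0.21. The calls of SLC7A11 and SHMT2 were also lost without either control DMSO library. ASNS and PSAT1, which fell together with AraC in control cells and with venetoclax in FOXM1-KD cells, changed in opposite directions with MK-2206.
FOXM1-KD cells in DMSO held more SHMT2 than control cells (434 and 336 against 144 and 152 CPM, 1.39 ± 0.15, adjusted p = 0.0066), and less SLC7A11 (-1.76 ± 0.42) and PSPH (-1.37 ± 0.11). With AraC 5 amino acid genes were higher in FOXM1-KD cells, CTH (2.13 ± 0.25), ASNS (1.7 ± 0.22), PHGDH (1.52 ± 0.2), SHMT2 (1.52 ± 0.19) and PSAT1 (1.15 ± 0.2). With venetoclax SHMT2 was higher (1 ± 0.37) and PSPH lower (-1.61 ± 0.42). MTHFD2, a mitochondrial folate enzyme, and the paired transporter subunits SLC7A5 and SLC3A2 were not called in any of the 9 comparisons.

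Sensors and transcription factors. ATF4 transcript was called with MK-2206 only, where it rose from 501 and 505 CPM to 2020 and 1860 CPM (log2 fold change 2.02 ± 0.23, adjusted p = 7.97e-17). In the other 14 libraries it ranged from 265 to 542 CPM, and with AraC in control cells it was lower without reaching 2-fold (-0.87, adjusted p = 7.47e-05). ATF5, a related factor translated in the same manner as ATF4, had 73.5 and 27.5 CPM in FOXM1-KD cells with DMSO and 150 and 137 CPM with AraC (1.43 ± 0.27, adjusted p = 5.27e-06). Control cells with DMSO had 11.9 and 14.3 CPM of ATF5, and it was called higher in FOXM1-KD cells under all 3 treatments (1.95, 2.39 and 1.27) and with MK-2206 (3.12 ± 0.3).
ERN1 rose from 16.6 and 12.9 CPM to 799 and 535 CPM with MK-2206 (5.56 ± 0.3, adjusted p = 2.35e-72), and from 35.2 and 26.0 CPM to 99.7 and 88.4 CPM with AraC in FOXM1-KD cells (1.55 ± 0.28, adjusted p = 1.69e-06). It was also higher in FOXM1-KD than in control cells in DMSO (1.06 ± 0.23), AraC (2.21 ± 0.23) and venetoclax (1.2 ± 0.42). EIF2AK3 rose with MK-2206 (3.14 ± 0.29) and EIF2AK4 fell (-2.91 ± 0.31), so that the 2 eIF2α kinases among the members moved in opposite directions there. EIF2AK4 was also lower in FOXM1-KD cells with AraC (-1.17 ± 0.21).
XBP1 was lower in FOXM1-KD than in control cells in DMSO (168 and 93.9 against 322 and 326 CPM, -1.3 ± 0.3, adjusted p = 0.0398) and with AraC (-1.37 ± 0.18, adjusted p = 8.62e-13), and was not called with venetoclax (192 and 148 against 222 and 310 CPM, -0.64, adjusted p = 0.23). ATF6 was not called in any of the 9 comparisons and kept 102 to 146 CPM in 15 libraries, with 240 CPM in MK-2206 replicate 2. With venetoclax in FOXM1-KD cells 0 of the 7 sensors and factors were called.

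ERAD. HERPUD1, whose product assembles the ERAD ligase complex, rose with MK-2206 from 67.7 and 59.6 CPM to 477 and 481 CPM (2.98, adjusted p = 2.31e-26), and EDEM1, which trims glycans of misfolded proteins, rose by 1.28 (0.97 and not called without MK-2206 replicate 1). HERPUD1 was higher in FOXM1-KD than in control cells with AraC (1.18 ± 0.21) and with venetoclax (1.02 ± 0.39). Without any 1 of the 4 libraries the latter call was lost. With venetoclax in FOXM1-KD cells it had 124 and 107 CPM beside 69.5 and 84.4 CPM with DMSO and was not called (0.6, adjusted p = 0.791). SEL1L, the ligase adaptor, was not called in any comparison.

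The drug effect differed between FOXM1-KD and control cells for 9 members with each drug, tested as an interaction over 8 libraries. For AraC the difference, FOXM1-KD minus control, was called positive for 9 members and negative for 0. Among all genes 3.94% were positive and 1.19% negative, and among those with at least 10 counts 6.61% and 1.99%. Of the 9 members, 5 were stress effectors, led by CHAC1 (difference of log2 fold changes 3.21 ± 0.32, adjusted p = 1.62e-20) and SESN2 (2.14 ± 0.3, adjusted p = 5.64e-10), and 0 were chaperones. SESN2 had a log2 fold change of -0.99 with AraC in control cells and 1.07 in FOXM1-KD cells. For venetoclax the difference was called positive for 7 members and negative for 2. Among all genes 0.481% were positive and 0.261% negative, and among those with at least 10 counts 0.849% and 0.469%. The 2 negative members were PHGDH (-1.62 in FOXM1-KD and -0.24 in control cells) and STC2 (-5.42 and -0.36), which fell more in FOXM1-KD cells. All 7 positive members were chaperones, with SDF2L1 (2.17 ± 0.51, adjusted p = 0.00636) and CRELD2 (2.06 ± 0.45, adjusted p = 0.0019) first. The venetoclax interaction was sensitive to the processing, with 4 members called by DESeq2 and 0 after filterByExpr removed genes with low counts, and it includes the 2 control venetoclax libraries that differed from each other. Without either of them, or without either FOXM1-KD venetoclax library, 0 members were called, and without 1 of the control DMSO libraries or FOXM1-KD DMSO replicate 1 the number was 1 to 3. The AraC interaction had 2 and 3 members without a control AraC library, 4 without FOXM1-KD AraC replicate 1, 18 without FOXM1-KD DMSO replicate 1 and 5 without replicate 2.

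**Figure D4:**
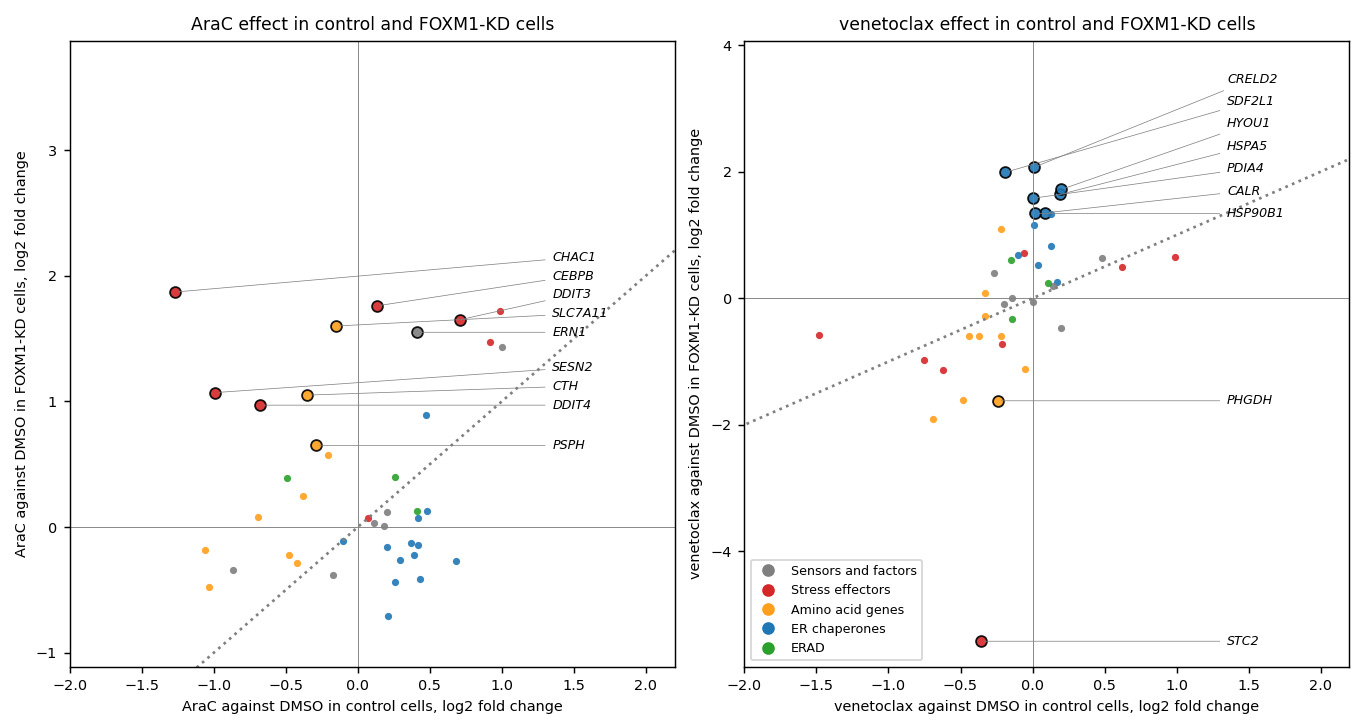
Log2 fold change of a drug against DMSO in control cells (horizontal axis) and in FOXM1-KD cells (vertical axis), for AraC (left) and venetoclax (right), with a point for each of 41 members coloured by role. NUPR1, with at most 1 count in these control libraries, is left out. Named, outlined points are members whose effects differ between the cells, and the dotted line marks equal effects. Among the named points 5 stress effectors lie above the line with AraC. With venetoclax 7 named chaperones lie above it near 0 on the horizontal axis, and STC2 lies at -5.42 in FOXM1-KD cells. In the interaction fits the difference was above 0 for all 9 stress effectors with AraC and all 13 chaperones with venetoclax, called or not.

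STL427944 and venetoclax in control cells. The edgeR test called 0 of 42 members for either drug, with 13 members (31%) and 5 members (11.9%) at an unadjusted p below 0.05, beside 1.24% and 0.832% of all genes tested. DESeq2 also called 0 of the members in both. With STL427944 the median log2 fold change was -0.89 over stress effectors, -0.74 over amino acid genes and 0.04 over chaperones, while that of genes with at least 10 counts was -0.02. ASNS had 30.4 and 28.9 CPM with STL427944 beside 58.7 and 70.1 CPM with DMSO (-1.11, adjusted p = 0.929), and CHAC1 64.9 and 37.9 beside 108 and 143 CPM (-1.28, adjusted p = 0.929). Neither gene overlapped between the groups, which can happen by chance with 2 libraries in each. PPP1R15A had 15.2 and 52.0 CPM with STL427944 and 52.2 and 19.1 CPM with control venetoclax, and DDIT3 5.19 and 16.6 CPM, then 15.1 and 5.07 CPM. In both genes the higher values belonged to STL427944 replicate 2 and venetoclax replicate 1, the libraries that lay closest to each other over all genes. Without STL427944 replicate 1, 11 members and 5.87% of all genes were called, from replicate 2 as the only library of the drug.

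The FOXM1-KD DMSO libraries, which serve as reference for both drugs, differed from each other by role. All 7 sensors and factors, all 9 stress effectors and 8 of 10 amino acid genes were higher in replicate 1, while 10 of 13 chaperones were higher in replicate 2. The share of all genes higher in either replicate was not counted, and the difference between roles was not tested. SDF2L1 had 7.40 and 15.4 CPM, MANF 29.2 and 54.8 CPM and HSPA5 173 and 276 CPM, against ASNS with 197 and 85.7 CPM and CTH with 27.7 and 9.54 CPM. Relative to the control DMSO mean, the median log2 ratio of chaperones in FOXM1-KD venetoclax libraries was 2.07 and 1.73 and that of amino acid genes -0.95 and -0.61. In FOXM1-KD AraC libraries the median was 0.38 and 0.46 for chaperones and 1.97 and 1.58 for stress effectors. In control AraC libraries it was 0.36 and 0.38 for chaperones and -0.3 and -0.47 for amino acid genes.

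**Figure D5:**
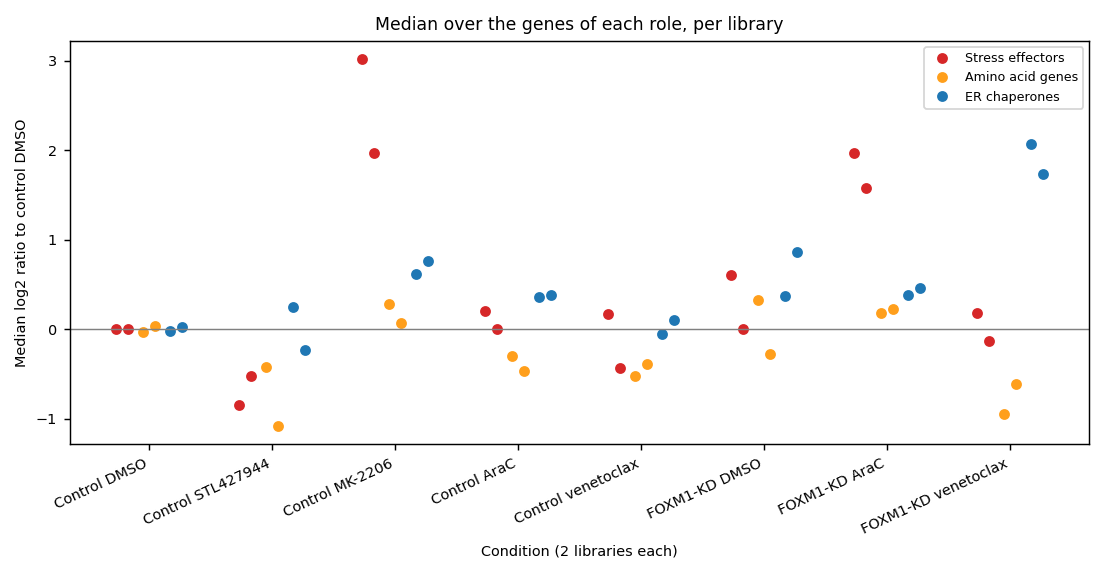
Median over the genes of each role of the log2 ratio of CPM + 0.5 to the mean of the control DMSO libraries (vertical axis), with a point for each library in the 8 conditions (horizontal axis). Stress effectors (red) are highest in MK-2206 replicate 1 (3.02), followed by MK-2206 replicate 2 and FOXM1-KD AraC replicate 1 (1.97 in each). Chaperones (blue) are highest with FOXM1-KD venetoclax (2.07 and 1.73), and amino acid genes (orange) are lowest in STL427944 replicate 2 (-1.08).

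Further genes of the pathways. Of 32 other ER protein processing genes, 3 were called higher and 0 lower with venetoclax in FOXM1-KD cells, P4HB, the abundant disulfide isomerase PDI (1.3 ± 0.26, adjusted p = 0.000126), and DNAJB11, a BiP cochaperone (1.01 ± 0.32, adjusted p = 0.086), among them. With AraC in those cells 1 of 31 tested was called. MK-2206 called 17 of the 32 higher, led by the ER oxidase ERO1B (4.3 ± 0.3) and the thioredoxin-like TXNDC11 (2.67 ± 0.29), and 7 lower. Of genes with at least 10 counts, 3.4% were called with venetoclax and 16% with AraC in FOXM1-KD cells. With MK-2206 61.5% were called, 28.5% higher and 33.1% lower. Of 21 other ATF4 targets, 1 rose and 4 fell with venetoclax in FOXM1-KD cells, the largest fall with at least 10 counts being that of CBS, the first enzyme of transsulfuration (-1.99 ± 0.45, adjusted p = 0.0012). With AraC 3 rose and 1 fell, led by ATF3, a stress-induced factor (3.55 ± 0.33, adjusted p = 1.2e-24), which also rose with MK-2206 (6.03 ± 0.31), where 7 of the 21 were called higher and 4 lower. Of 13 genes of eIF2 and its regulation, 0 were called with either drug in FOXM1-KD cells, and MK-2206 called 2 higher and 4 lower, among them EIF2AK2, the double-stranded RNA sensor PKR (-3.37 ± 0.31), and EIF2S1, which encodes eIF2α (-2.28 ± 0.29). In control cells STL427944 and venetoclax called 0 genes of the 3 lists, and AraC 1 of the 21 ATF4 targets higher. Between FOXM1-KD and control cells, the ER list had 5 called higher and 3 lower in DMSO, 5 and 5 with AraC, and 9 and 3 with venetoclax. These were 25%, 31.2% and 37.5% of the list. Of genes with at least 10 counts, 33.5%, 38.7% and 36.5% were called in these comparisons. P4HB was among the ER genes called higher each time, by 1.98 ± 0.09, 1.41 ± 0.15 and 3.31 ± 0.33 on the log2 scale. The ATF4 list had 3 higher and 4 lower in DMSO, 6 and 3 with AraC, and 3 and 6 with venetoclax, with VLDLR, a lipoprotein receptor, higher each time (5.08 ± 0.6, 4.93 ± 0.28 and 5.17 ± 0.52). The eIF2 list had 1 higher and 0 lower in DMSO and 1 of each with AraC and with venetoclax, and DELE1, which relays mitochondrial stress to eIF2α kinase signalling, was higher each time (1.38 ± 0.1, 1.44 ± 0.22 and 1.25 ± 0.4).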

How the data were processed

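Total RNA of 16 cultures labelled KG-1 was depleted of ribosomal RNA and sequenced. The authors aligned the reads to hg38 with STAR, counted them per Ensembl gene with featureCounts and deposited raw counts. Versions, the use of molecular identifiers and the strand setting of the counting are not given in the sources used here. Members that overlap a neighbour on the other strand (such as HSP90B1 and MTHFD2) therefore cannot be told apart from it if strand was ignored. ASNS, NUPR1, DDIT3, CANX, HSP90B1 and ATF5 share exon sequence with another gene on their own strand. The kit named in the labels differs from that in the paper. Groups came from the labels, and replicates 1 and 2 of the DMSO and STL427944 libraries are in accession order.

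Deposited counts were scaled by TMM and tested with edgeR 4.0.16 in R 4.3.3 (glmQLFit and glmQLFTest, prior count 0.125) within each comparison, for every gene counted at least 1 time there, and p-values were adjusted by Benjamini-Hochberg. Standard errors were derived from the F statistic. Calls used the study's thresholds (2-fold, adjusted p below 0.1). CPM were scaled over all 16 libraries, and ratios to control DMSO in plots used a pseudocount of 0.5. Bounds set libraries at a floor of 3 counts, and bounds and counting intervals (summed counts over summed totals) cover counting error only. The test was tried on simulated counts before use. Between replicates the chi-square of the counts per degree of freedom was 8.58 to 103, so each library counted as 1 replicate. Library totals of 7351755 to 21362546 counts set the precision.

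Alternatives were DESeq2 1.42.0, a low-count filter (filterByExpr), scaling to totals or by the size factors of DESeq2, a fit over the 16 libraries together, p adjusted over every group, calls without the fold threshold, the replicate block and leaving out each library. The AraC, venetoclax and MK-2206 libraries are numbered in the labels. Same-numbered libraries of 10 pairs of groups deviated together from their group means (correlations of 0.296 to 0.48 over 14888 genes). The replicate block therefore treated them as pairs, and where the shared deviation came from was not tested. The members and the other lists were chosen with earlier results of these data known. Named were members by role, in each comparison up to 3 that rose and 3 that fell most (where no library had under 10 counts) with further members of a role as examples, those of an interaction, and of each other list up to 2 called genes with the largest change (a gene named so in one comparison may be given in others), with FOXM1 and CD34. Drawing used Python 3.11.15 and matplotlib 3.10.9.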

Additional observations from a re-analysis of the deposited data

Results flagged for a closer look

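The effect of AraC differed between FOXM1-KD and control cells for 9 members by the interaction term of edgeR's quasi-likelihood test. As differences of log2 fold changes (FOXM1-KD minus control), these were 3.21 for CHAC1, 2.14 for SESN2, 1.82 for SLC7A11, 1.74 for DDIT4, 1.7 for CEBPB, 1.47 for CTH, 1.22 for ERN1, 1.03 for PSPH and 1.02 for DDIT3. The last 2 had adjusted p of 0.0138 and 0.0443. Without FOXM1-KD DMSO replicate 1, 18 members differed, and without control AraC replicate 2, 2.

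The effect of venetoclax differed for 9 members by the same test. The differences were 2.17 for SDF2L1, 2.06 for CRELD2, 1.59 for PDIA4, 1.53 for HYOU1, 1.45 for HSPA5, 1.31 for HSP90B1 and 1.26 for CALR, all of them chaperones with a larger effect in FOXM1-KD cells, and -1.37 for PHGDH and -5.05 for STC2. Adjusted p ranged from 9.22e-09 (STC2) to 0.0824 (PHGDH). STC2 was at 310 counts in FOXM1-KD DMSO replicate 1 and at 17 in replicate 2, and its difference was between -5.99 and -1.81 when 1 library was left out.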

How the results depend on the processing

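Of 1344 alternative values of 125 called log2 fold changes of single members, 1099 kept their direction and their side of the threshold, 245 kept the direction but were no longer called, and 0 reversed. Of the 245, 211 came from leaving out a library. The number of members called stayed within 1.5 times under the alternatives other than leaving out a library for MK-2206 and for both drugs in FOXM1-KD cells. With STL427944 the 0 members became 8 with p adjusted over every group and 5 with the 16 libraries fitted together, and with venetoclax in control cells 2 and 1. With AraC in control cells the 3 members became 5 with the 16 libraries together, with DESeq2 size factors, with DESeq2 and with filterByExpr, and 22 without a fold threshold. Without that threshold the 13 members of FOXM1-KD against control cells in DMSO became 21, and the 9 of the AraC interaction 17, which became 5 with the 16 libraries together. The venetoclax interaction had 4 members with DESeq2, all chaperones, and 0 with filterByExpr. The causes were not tested.

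When 1 library was left out, the members called ranged from 0 to 11 for STL427944, from 0 to 4 for AraC in control cells, from 0 to 13 for AraC and from 0 to 12 for venetoclax in FOXM1-KD cells, from 4 to 15 for FOXM1-KD against control cells in DMSO, from 14 to 21 with venetoclax, from 2 to 18 for the AraC interaction and from 0 to 11 for the venetoclax interaction. Chaperones called higher ranged from 0 to 8 with venetoclax in FOXM1-KD cells and from 0 to 8 in its interaction, and stress effectors from 0 to 9 with AraC in FOXM1-KD cells and from 2 to 8 in its interaction.

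The replicate block, possible for FOXM1-KD against control cells with AraC and with venetoclax, left 19 and 21 members called and 11 chaperones higher with venetoclax, the same numbers as without the pairing.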
